A study of Mus musculus with 4 samples.

Results

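The 9 autosomal genes for pore-forming alpha-1 subunits of voltage-gated calcium channels were followed in 2 lists of regions marked by acetylation of histone H3 at lysine 27 (H3K27ac). They are Cacna1a, Cacna1b, Cacna1c, Cacna1d, Cacna1e, Cacna1g, Cacna1h, Cacna1i and Cacna1s, 9 of 21418 autosomal protein-coding genes in the annotation used. A region was given to a gene when its centre lay in the gene body or within 20 kb upstream of its 5′ end. This rule took 25 of 12566 regions from mdxIKKβf/f hearts and 51 of 22981 from mdxHRTΔIKKβ hearts, 76 of 35547 in all. The X-linked relative Cacna1f is outside the autosomal rule, and both lists held 0 regions in its 48.1 kb window, on a chromosome with 6 and 21 regions in all.

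All mice carried the mdx mutation, which removes dystrophin, from a line of C57BL/10 ScSn origin, and were 7 months old. mdxHRTΔIKKβ mice lacked IKKβ, the kinase that activates classical NF-κB signaling, in cardiomyocytes through a Myh6-driven cre. The other cells of these whole hearts kept the kinase. mdxIKKβf/f littermates carried the floxed alleles without cre. There was 1 chromatin immunoprecipitation library per genotype, each called against its own input, so no difference between genotypes could be set against animal-to-animal spread and no test was made. Intervals given for counts are exact Poisson intervals and those for shares exact Clopper-Pearson intervals, both at 95% and both for counting error only. Fewer cells of a type and less acetylation per cell cannot be told apart in whole hearts.

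The libraries held 57852347 tags in mdxIKKβf/f and 62458751 in mdxHRTΔIKKβ. Each region carries a peak score, taken here as a level in tags set by the caller. It also carries a normalized tag count, which is scaled to 10000000 tags per library and need not cover the same tags as the score. The 500 bp region chr17:25512537-25513037 in Cacna1h had a score of 45 but 57 tags by its normalized count. For chr2:24492826-24493326 in Cacna1b, also 500 bp wide, these were 31 and 27. A window needed a score of at least 29 in mdxIKKβf/f and 30 in mdxHRTΔIKKβ, where 14.5 and 15.6 tags were expected. Cardiomyocyte marker genes were checked by the same rule. Of 16 such genes, 5 held a region in mdxIKKβf/f and 7 in mdxHRTΔIKKβ, with 8 regions against 7.58 expected and 14 against 13.7 expected from chromosome density. Of these 16 genes, 2 and 1 had a region within 3 kb of a start site, beside 5.27% and 9.39% of all protein-coding genes. Myh6, Tnnt2, Actc1, Myl2, Myl7 and Actn2, which encode sarcomere proteins of the heart, held 0 regions in both lists. Myl3 also held 0 in its window, but a mdxHRTΔIKKβ region outside that window lay within 3 kb of one of its starts. Other sarcomere genes of the list did hold regions: Myh7 and Tnni3 had 1 in each list, and Ttn had 2 in mdxIKKβf/f and 1 in mdxHRTΔIKKβ. Ryr2 alone held 8 of the 14 mdxHRTΔIKKβ regions, in a window of 573.8 kb, and 1 in mdxIKKβf/f. Over all protein-coding genes, 22.7% and 36.4% held a region. The fibroblast list had regions in 3 and 2 of 7 genes, with 4 regions against 1.78 expected and 2 against 3.22. The endothelial list had them in 0 and 4 of 6 genes, with 0 against 3.35 and 7 against 6.14. The macrophage list had them in 4 and 4 of 7 genes, with 5 against 2.43 and 7 against 4.63. The neuronal list had regions in 4 and 5 of the 6 genes found in the annotation, with 17 regions against 6.48 expected and 25 against 11.7. Most of these lay in Rbfox3 alone, which held 12 and 17 in a window of 441.8 kb, against 2.68 and 5.05 expected. The counts therefore do not describe the neuronal list as a whole.

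Voltage-gated calcium channels open on depolarization and let calcium into the cell, and the alpha-1 subunit forms the pore, the voltage sensor and most drug-binding sites. Cacna1c, Cacna1d and Cacna1s encode L-type channels (Cav1), of which Cacna1c carries the main calcium current of ventricular muscle and Cacna1d contributes to pacemaking, while Cacna1s is the voltage sensor of skeletal muscle. Cacna1a, Cacna1b and Cacna1e encode the P/Q-, N- and R-type channels (Cav2), best known for transmitter release at synapses. Cacna1g, Cacna1h and Cacna1i encode T-type channels (Cav3), which open at low voltage, and T-type currents reappear in ventricular muscle under load. H3K27ac marks active promoters and enhancers.

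The 9 windows span 2.28 Mb of mm9. They held 25 mdxIKKβf/f regions, where the density of regions on each gene's chromosome gives 11.3, a ratio of observed to expected of 2.22 with an interval of 1.43 to 3.27. They held 51 mdxHRTΔIKKβ regions against 20.9 expected, a ratio of 2.44 with an interval of 1.81 to 3.20. Both lists were therefore denser in these windows than on their chromosomes, by nearly the same factor.

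The mdxHRTΔIKKβ list supplied 67.1% of the 76 regions, with an interval of 55.4 to 77.5%. It supplied 64.7% of the 35475 regions on all autosomes and 65.1% of the 15934 on the 8 chromosomes that carry the genes. The interval of the share in the channel genes includes both. When both lists were held to the same score relative to the tags expected by chance, 25 and 35 regions were left and the share was 58.3%, with an interval of 44.9 to 70.9%, beside 52.5% on all autosomes.

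Each of the 9 genes held at least 1 region in each list. Among the 3935 autosomal protein-coding genes whose windows were at least as long as the shortest of the 9 (79.5 kb), 48.9% held a region in mdxIKKβf/f and 66.8% in mdxHRTΔIKKβ. Over all 21418 genes, most of them shorter, the shares were 22.7% and 36.4%. In both lists 5 of the 9 genes had at least 2 times the expected number, against 18.9% and 17.1% of the 3935 genes. In mdxIKKβf/f, Cacna1h and Cacna1s reached this with 1 region each, against 0.421 and 0.400 expected. The 3935 genes were not matched to the 9 for GC content. The median ratio over the 9 genes was 2.01 in mdxIKKβf/f and 2.73 in mdxHRTΔIKKβ, where the 3935 genes had medians of 0 and 0.829. More regions in mdxHRTΔIKKβ than in mdxIKKβf/f were found in 6 of the 9 genes, equal numbers in Cacna1i and Cacna1s, and fewer in Cacna1a. Among the 3935 genes 48.8% held more in mdxHRTΔIKKβ. Only 66.8% of them held any mdxHRTΔIKKβ region, whereas all 9 channel genes did, so the 48.8% is not a like baseline for 6 of 9.

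**Figure D1:**
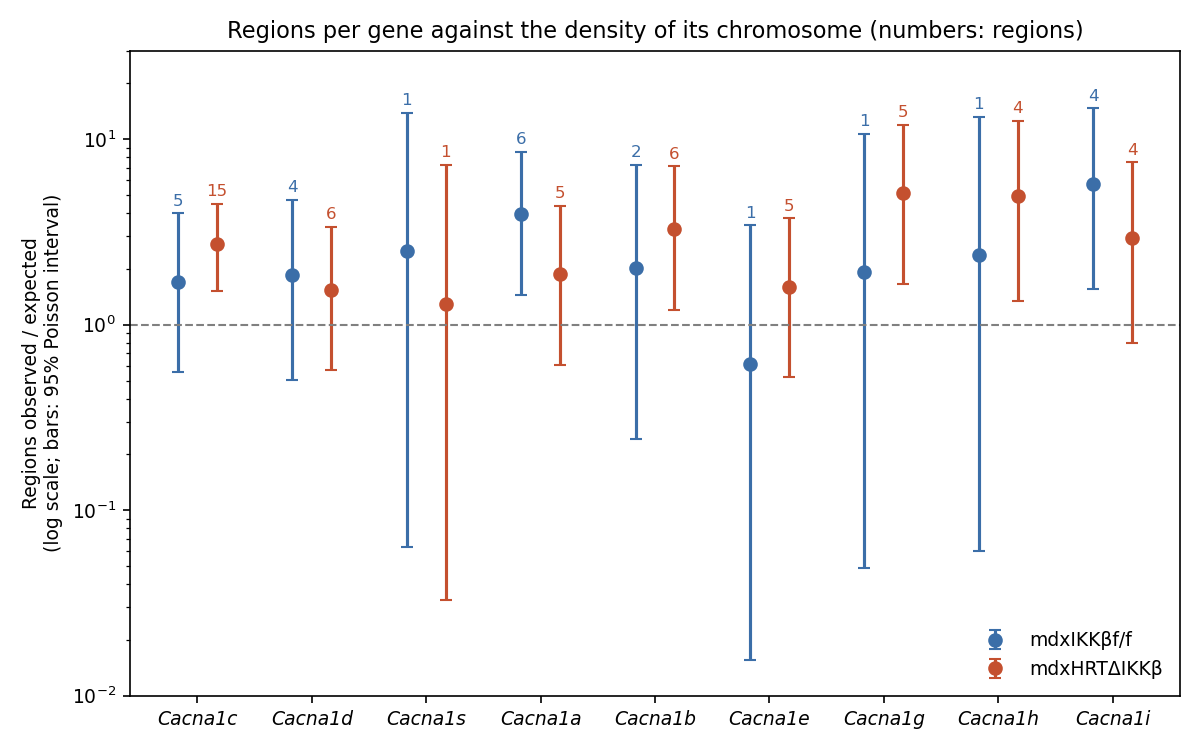
Regions observed over regions expected from the chromosome's density, for each of the 9 genes on a log axis. Points are the ratio in mdxIKKβf/f (blue) and mdxHRTΔIKKβ (red), bars are 95% Poisson intervals, the numbers are region counts and the dashed line marks a ratio of 1. Only Cacna1e in mdxIKKβf/f, at 0.616, lies below the line, and the intervals of the 2 lists overlap in every gene.

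GC content differed between these windows and their surroundings and moved with the counts. The windows had 42.8% (Cacna1e) to 54.8% GC (Cacna1h), each above its own chromosome (41.1 to 43.8%). The median over the 3935 genes was also 42.8%. Across those genes Spearman's rho between GC content and the ratio of observed to expected regions was 0.285 in mdxIKKβf/f and 0.428 in mdxHRTΔIKKβ, as a description over genes that share the same libraries and in part the same bases. Across autosomal tiles of 500 bp, mdxHRTΔIKKβ regions were found at 3.95 per Mb in tiles of 38 to 40% GC and at 31.9 per Mb in tiles of 54 to 56%. The mdxIKKβf/f list had 2.27 and 18.8 per Mb in the same tiles. Taking the expected number from tiles of the same GC content, a comparison added after the data were seen, gave 20.3 regions in mdxIKKβf/f and 37.4 in mdxHRTΔIKKβ. The ratios were then 1.23, with an interval of 0.798 to 1.82, and 1.36, with an interval of 1.02 to 1.79. On this scale the 25 mdxIKKβf/f regions were within counting error of the expected number. The interval of the 51 mdxHRTΔIKKβ regions only just excluded it. That interval treats regions as independent, but 9 of the 51 lay within 2000 bp of another region of the list. In Cacna1h that neighbour lay outside the window. The interval is therefore too narrow to set the 51 regions apart from the expected number. By gene, a ratio of at least 2 was left only in Cacna1a (2.09) and Cacna1i (2.14) in mdxIKKβf/f, and in Cacna1b (2.09) and Cacna1g (2.24) in mdxHRTΔIKKβ.

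**Figure D2:**
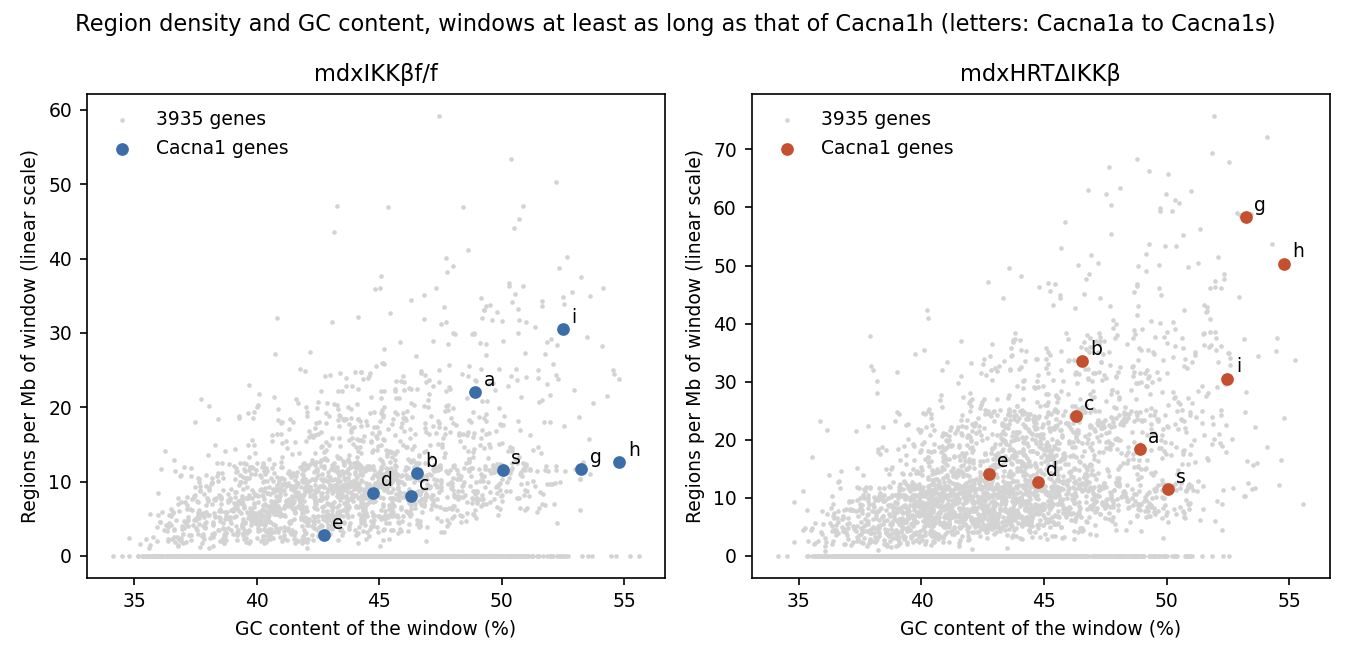
Regions per Mb of window (linear scale) against the GC content of the window in percent, with mdxIKKβf/f on the left and mdxHRTΔIKKβ on the right. Grey points are the 3935 genes with windows of at least 79.5 kb, and coloured points lettered a to s are the Cacna1 genes among them. The T-type genes g, h and i lie farthest to the right, above 52% GC, and in mdxHRTΔIKKβ Cacna1g is highest of the 9 at 58.3 per Mb.

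By channel class, the 3 L-type genes held 10 and 22 regions (mdxIKKβf/f and mdxHRTΔIKKβ), the 3 P/Q-, N- and R-type genes 9 and 16, and the 3 T-type genes 6 and 13. Per Mb of window the T-type genes were densest, with 20.3 and 43.9 regions, against 8.46 and 18.6 in the L-type and 11.2 and 19.9 in the P/Q-, N- and R-type genes. The ratios to chromosome density were 3.66 and 4.12 for T-type, 1.82 and 2.17 for L-type and 2.17 and 2.10 for P/Q-, N- and R-type genes. Their intervals overlapped in each list, from 1.34 to 7.96 for T-type and 0.872 to 3.34 for L-type in mdxIKKβf/f, and from 2.19 to 7.05 and 1.36 to 3.28 in mdxHRTΔIKKβ. The T-type windows had 53.3% GC, against 45.95% and 45.7% in the other classes. Against tiles of the same GC content the T-type ratios were 1.36 and 1.68, the L-type ratios 1.05 and 1.23, and the P/Q-, N- and R-type ratios 1.42 and 1.36. T-type genes had the highest ratio in both lists by chromosome density, but with tiles of the same GC content only in mdxHRTΔIKKβ. There the intervals were 0.895 to 2.87 for T-type, 0.770 to 1.86 for L-type and 0.779 to 2.21 for P/Q-, N- and R-type genes. In mdxIKKβf/f they were 0.498 to 2.95, 0.502 to 1.93 and 0.652 to 2.71. All of them include the expected number and overlap, so these counts do not order the classes.

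The regions of the 2 genotypes did not overlap in these genes. Of the 25 and 51 regions, 0 shared a base with the other list, where 3.18% of all autosomal mdxIKKβf/f regions and 1.74% of mdxHRTΔIKKβ regions did. Those shares amount to 0.795 and 0.887 regions, so 0 is not a departure from the lists. The median gap to the nearest region of the other list was 13.3 kb from mdxIKKβf/f regions and 20.1 kb from mdxHRTΔIKKβ regions. The nearest pair lay in intron 3 of Cacna1c, 101 bp apart. The central 200 bases of both are shown because no other part of the 9 genes came as near to a region common to both genotypes, and the pair was chosen after its values were seen. CpG dinucleotides are in capitals, and both sequences are the plus strand of mm9, at chr6:118770479-118770678 and chr6:118771171-118771370.
Cacna1c, mdxIKKβf/f: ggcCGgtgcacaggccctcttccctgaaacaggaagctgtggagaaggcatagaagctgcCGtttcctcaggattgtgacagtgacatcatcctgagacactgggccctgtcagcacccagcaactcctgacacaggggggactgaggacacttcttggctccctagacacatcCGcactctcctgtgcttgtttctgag
Cacna1c, mdxHRTΔIKKβ: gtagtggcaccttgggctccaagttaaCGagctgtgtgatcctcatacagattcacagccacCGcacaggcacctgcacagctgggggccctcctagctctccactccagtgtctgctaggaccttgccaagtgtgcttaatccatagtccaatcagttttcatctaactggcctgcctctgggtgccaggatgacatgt

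**Figure D3:**
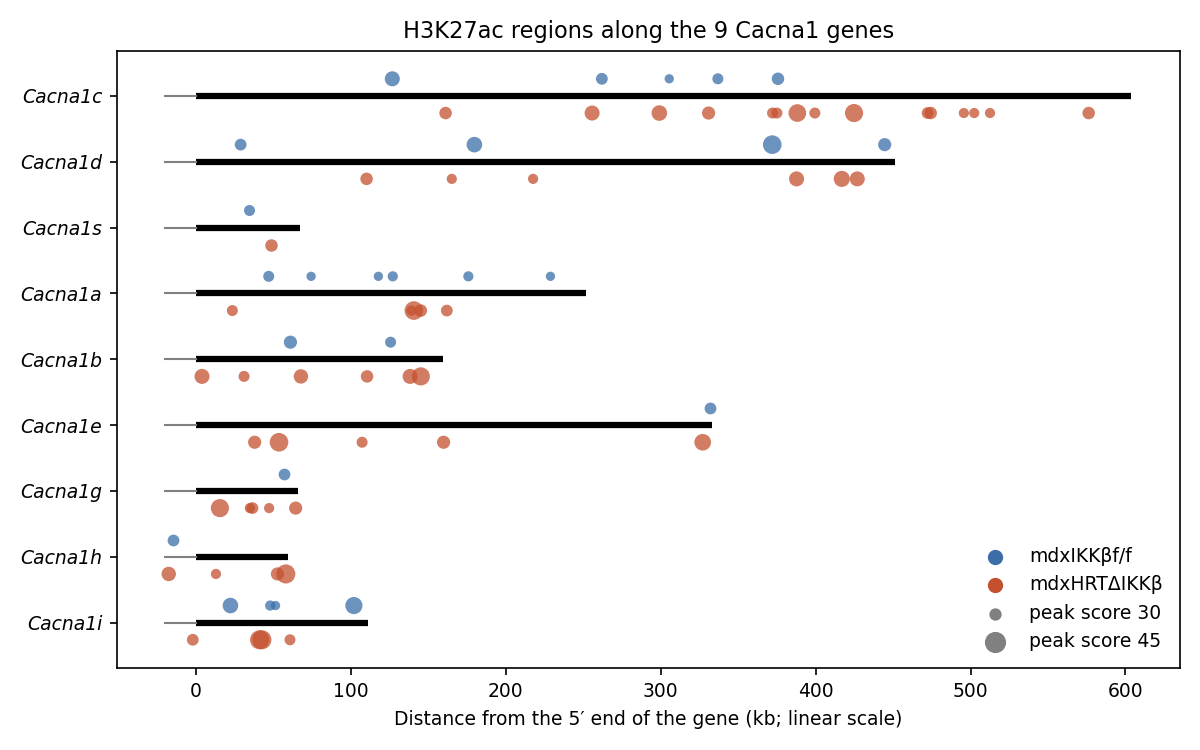
Regions along each gene, with the distance of each region's centre from the 5′ end of the gene in kb on a linear axis. Black bars are gene bodies, grey lines the 20 kb upstream, blue points above each bar mdxIKKβf/f regions and red points below it mdxHRTΔIKKβ regions, and the point area grows with the peak score. Most points lie within gene bodies, 73 of 76, and 3 lie upstream, 2 of them in Cacna1h.

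Cacna1c, the main cardiac L-type gene, is the longest of the 9 (ENSMUSG00000051331.7, chr6:118542314-119146249, minus strand, 603.9 kb). It held 5 mdxIKKβf/f regions against 2.93 expected and 15 mdxHRTΔIKKβ regions against 5.50, the highest count in the family. The ratio was 1.71 in mdxIKKβf/f and 2.73 in mdxHRTΔIKKβ, with intervals of 0.554 to 3.98 and 1.53 to 4.50 that overlap. Every one of the 20 regions was intronic. The strongest in mdxIKKβf/f was chr6:119019310-119019810 in intron 1, with a score of 37. It was followed by chr6:118770238-118770920 at 33 and chr6:118883999-118884499 at 32, both in intron 3. In mdxHRTΔIKKβ the strongest were chr6:118721219-118721719 in intron 5 (score 43, 6.88 normalized tags and 12.3-fold over input), chr6:118757732-118758359 at 42 and chr6:118846933-118847433 at 38, the latter pair in intron 3. The region in intron 5 had the highest fold over input of the 51 mdxHRTΔIKKβ regions, over 2 input tags. The nearest region to the 5′ end lay 127 kb inside the gene in mdxIKKβf/f and 161 kb inside it in mdxHRTΔIKKβ, and the nearest start of any coding transcript was 40.2 and 8.87 kb from a region. No region was called at an annotated promoter of this gene in either list. Windows that missed the caller's thresholds are not in the lists, so the lack of a call gives no level at these promoters.

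Cacna1d, the other L-type gene with a cardiac role, held 4 and 6 regions against 2.17 and 3.88 expected (ENSMUSG00000015968.9, chr14:30853135-31304342, minus strand, 451.2 kb). Its ratios of 1.84 and 1.55 were alike within counting error. The mdxIKKβf/f region chr14:30932023-30932650, centred on exon 16, had the highest score of that genotype in the family, 44, with 8.12 normalized tags (interval 5.97 to 10.8). The next were chr14:31124422-31124922 in intron 3 at 38 and chr14:30859443-30860068 in intron 46 at 34. The strongest mdxHRTΔIKKβ regions were chr14:30887241-30887741 in intron 38 at 39, chr14:30916360-30916860 in intron 24 at 37 and chr14:30877193-30877693 in intron 41 at 37. These 3 lay in the last part of the gene, 388 to 427 kb from its 5′ end. The central 200 bases of the exon 16 region, the highest mdxIKKβf/f score, are the plus strand of mm9 at chr14:30932236-30932435 with CpG dinucleotides in capitals.
Cacna1d, mdxIKKβf/f: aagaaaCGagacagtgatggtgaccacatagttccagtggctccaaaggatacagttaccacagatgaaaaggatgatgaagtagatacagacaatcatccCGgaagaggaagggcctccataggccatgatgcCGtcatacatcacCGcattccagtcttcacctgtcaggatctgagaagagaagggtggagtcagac

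Cacna1s, the skeletal muscle L-type gene, held 1 region in each list (ENSMUSG00000026407.10, chr1:137949327-138016399, plus strand, 67.1 kb). They were chr1:137983061-137983561, centred on exon 13, with a score of 31 in mdxIKKβf/f, and chr1:137997238-137997738 in intron 27 with a score of 33 in mdxHRTΔIKKβ. Against 0.400 and 0.769 expected the ratios were 2.50 and 1.30, with intervals from 0.0633 to 13.9 and from 0.0329 to 7.25. A count of 1 cannot place this gene above or below its chromosome at this depth.

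Cacna1a, which encodes the P/Q-type pore, was the one gene with fewer regions in mdxHRTΔIKKβ, 5 against 6 in mdxIKKβf/f (ENSMUSG00000034656.9, chr8:86912339-87164145, plus strand, 251.8 kb). The expected numbers were 2.68 and 1.52, and the ratios 1.87 (interval 0.607 to 4.36) and 3.94 (1.44 to 8.57) overlap. The mdxIKKβf/f regions were spread over the gene with scores of 29 to 31. They included chr8:86959002-86959502 in intron 1 at 31, chr8:87087821-87088459 in intron 19 at 30 and chr8:87039117-87039617 in intron 4 at 30. In mdxHRTΔIKKβ 4 of the 5 lay between 139 and 162 kb from the 5′ end. The strongest was chr8:87052713-87053213 in intron 6 at 44, followed by chr8:87057196-87057696 in intron 7 at 33 and chr8:87073876-87074509 in intron 14 at 32.

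Cacna1b, the N-type gene, held 2 mdxIKKβf/f and 6 mdxHRTΔIKKβ regions against 0.995 and 1.83 expected (ENSMUSG00000004113.11, chr2:24459407-24618672, minus strand, 159.3 kb). The ratios were 2.01 (interval 0.244 to 7.26) and 3.28 (1.20 to 7.13). Both mdxIKKβf/f regions were intronic, chr2:24557436-24558071 in intron 12 with a score of 34 and chr2:24492826-24493326 in intron 35 at 31. The latter was 18.6-fold over input, but over 1 input tag. The strongest mdxHRTΔIKKβ regions were chr2:24473365-24473865 in intron 41 at 43, chr2:24480192-24480692 in intron 39 at 37 and chr2:24614578-24615078 in intron 2 at 37. The last lay 3.84 kb from the 5′ end, the nearest approach to the 5′ end within any of the gene bodies.

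Cacna1e, the R-type gene, held 1 mdxIKKβf/f and 5 mdxHRTΔIKKβ regions against 1.62 and 3.12 expected (ENSMUSG00000004110.7, chr1:156239649-156573049, minus strand, 333.4 kb). The ratios were 0.616 (interval 0.0156 to 3.43) and 1.60 (0.520 to 3.74), and both include 1. Its window has the lowest GC content of the 9. The mdxIKKβf/f region chr1:156240987-156241624 (score 32) and the mdxHRTΔIKKβ region chr1:156245680-156246308 (score 40) both lay in exon 47, the last exon, 4056 bp apart. The highest score in the gene was 44, at chr1:156519099-156519894 in intron 3 in mdxHRTΔIKKβ. With 10.7 normalized tags (interval 8.31 to 13.6) it also had the most normalized tags of all 76 regions, over a width of 795 bp. The remaining named region was chr1:156412954-156413454 in intron 6 at 34.

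Cacna1g, a T-type gene, held 1 mdxIKKβf/f and 5 mdxHRTΔIKKβ regions against 0.520 and 0.979 expected (ENSMUSG00000020866.10, chr11:94269705-94335414, minus strand, 65.7 kb). The mdxHRTΔIKKβ ratio of 5.10 (interval 1.66 to 11.9) was the highest in that list and higher than in 98.9% of the 3935 genes. The mdxIKKβf/f ratio of 1.92 has an interval of 0.0487 to 10.7, which contains it. The window has 53.2% GC, and the ratio to tiles of the same GC content was 2.24 in mdxHRTΔIKKβ and 0.784 in mdxIKKβf/f. The mdxIKKβf/f region was chr11:94278032-94278665 in intron 29 with a score of 32. The strongest mdxHRTΔIKKβ regions were chr11:94319770-94320270 in intron 8 at 43, chr11:94270858-94271358 in exon 38 at 34 and chr11:94298774-94299274 in intron 16 at 32.

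Cacna1h, the second T-type gene, held 1 and 4 regions against 0.421 and 0.813 expected (ENSMUSG00000024112.9, chr17:25511230-25570728, minus strand, 59.5 kb). The ratios were 2.37 (interval 0.0601 to 13.2) and 4.92 (1.34 to 12.6), and the ratios to tiles of the same GC content 0.782 and 1.84. The single mdxIKKβf/f region, chr17:25585513-25586013, lay 15.0 kb upstream of the gene with a score of 32. Its 42.7-fold enrichment, the highest of all 76, rests on an input entered as 0.5 tags, which stands for 0. A mdxHRTΔIKKβ region lay upstream as well, at chr17:25587997-25588765, 17.7 kb from the 5′ end and 1984 bp from the mdxIKKβf/f region. It had a score of 36 and 10.2 normalized tags (interval 7.89 to 13.1) but was only 4.07-fold over input, with 9 input tags. The nearest start of another coding gene, Tekt4, was 20.1 kb from it. The mdxHRTΔIKKβ region in the last exon, chr17:25512537-25513037, had a score of 45, tied for the highest in the family, with 9.13 normalized tags (interval 6.91 to 11.8). The remaining named region was chr17:25517962-25518462 in intron 26 at 34.

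Cacna1i, the third T-type gene, held 4 regions in each list against 0.699 and 1.36 expected (ENSMUSG00000022416.9, chr15:80117668-80228709, plus strand, 111.0 kb). The mdxIKKβf/f ratio of 5.72 (interval 1.56 to 14.7) was the highest in that list and the mdxHRTΔIKKβ ratio was 2.94 (0.800 to 7.52). In tiles of the same GC content 1.87 and 3.33 regions would be found, for ratios of 2.14 and 1.20. The mdxIKKβf/f regions included chr15:80219355-80219855 in exon 32 at 41, chr15:80139601-80140101 in intron 2 at 38 and chr15:80165255-80165755 in intron 4 at 30. In mdxHRTΔIKKβ a pair of regions in intron 4 with scores of 45 each, chr15:80158431-80158931 and chr15:80159905-80160405, lay 974 bp apart. A mdxHRTΔIKKβ region with a score of 32, chr15:80115293-80115793, lay 2.12 kb upstream of the 5′ end. It was the nearest region to the 5′ end of any of the 9 genes.

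Most of the regions were far from promoters. By the longest coding transcript of each gene, 62 of the 76 centres lay in introns (81.6%, interval 71.0 to 89.5%), 8 in exons, 3 upstream and 3 in the gene but outside that transcript. Exons held 5 of 25 mdxIKKβf/f centres and 3 of 51 mdxHRTΔIKKβ centres, with intervals of 6.83 to 40.7% and 1.23 to 16.2%. In the windows of the 3935 genes, exons of the longest coding transcript held 5.03% of mdxIKKβf/f and 4.60% of mdxHRTΔIKKβ regions, and introns 79.8% and 80.3%. Exons make up 1.08% (Cacna1c) to 13.3% (Cacna1h) of the 9 gene bodies. Of the 73 regions within gene bodies, 15 lay in the first of 3 equal parts of the gene, 31 in the middle part and 27 in the last. A transcript start of the same gene lay within 3 kb of 3 mdxIKKβf/f and 5 mdxHRTΔIKKβ regions. Counting starts of coding transcripts alone, these were 1 and 3, and all but the region upstream of Cacna1i were at starts inside the gene. By gene, 3 of 9 had a mdxIKKβf/f region within 3 kb of any of their starts, against 8.23% of the 3935 genes, and 5 of 9 had a mdxHRTΔIKKβ region there, against 13.9%. The 5 include Cacna1s, through a region centred beyond the end of the gene. The 9 genes have up to 19 annotated transcripts, and genes with more starts have more chances to be counted. Start sites of any gene lay within 3 kb of 4 of 25 and 6 of 51 regions, and of 12.0% and 12.2% of all autosomal regions. Neighbouring regions of the same list lay within 2000 bp, a distance chosen after the data were seen, of 0 of 25 mdxIKKβf/f regions and 9 of 51 mdxHRTΔIKKβ regions (17.6%, interval 8.40 to 30.9%), against 2.86% and 4.89% of all autosomal regions. Neighbours are not independent of each other, so this interval is too narrow. The shares over all autosomal regions were not matched for region density, which was higher in these windows than on their chromosomes.

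Median peak levels in these genes lay near those of the lists, while mdxHRTΔIKKβ regions had a smaller share close to the threshold and a larger share of high scores. The median score was 32 in mdxIKKβf/f and 33 in mdxHRTΔIKKβ, against 31 and 32 in all autosomal regions. Scores within 5 tags of the threshold were held by 80% of mdxIKKβf/f regions, as in the list (79.7%), and by 62.7% of mdxHRTΔIKKβ regions, against 77.7% in the list. Median normalized tags per kb of region were 10.4 in mdxIKKβf/f, as in its list, and 10.2 in mdxHRTΔIKKβ, against 9.92. The median fold over input was 5.16 in mdxIKKβf/f and 4.92 in mdxHRTΔIKKβ, against 5.16 and 5 in the lists. At least 8-fold enrichment was reached by 5 and 10 regions, 20% and 19.6%, against 14.8% and 20.7% of the lists. Input tags under a region had a median of 4 in each list. A score of 42 or more, a limit chosen after the scores were seen, was held by 1 of 25 mdxIKKβf/f regions (4%, interval 0.101 to 20.3%) and 9 of 51 mdxHRTΔIKKβ regions (17.6%, 8.40 to 30.9%), against 2.26% and 4.55% of all autosomal regions. The 9 include the pair in intron 4 of Cacna1i, 974 bp apart. They are therefore not independent, and the mdxHRTΔIKKβ interval is too narrow. No region of the 76 reached the highest scores of its list, 56 and 73.

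**Figure D4:**
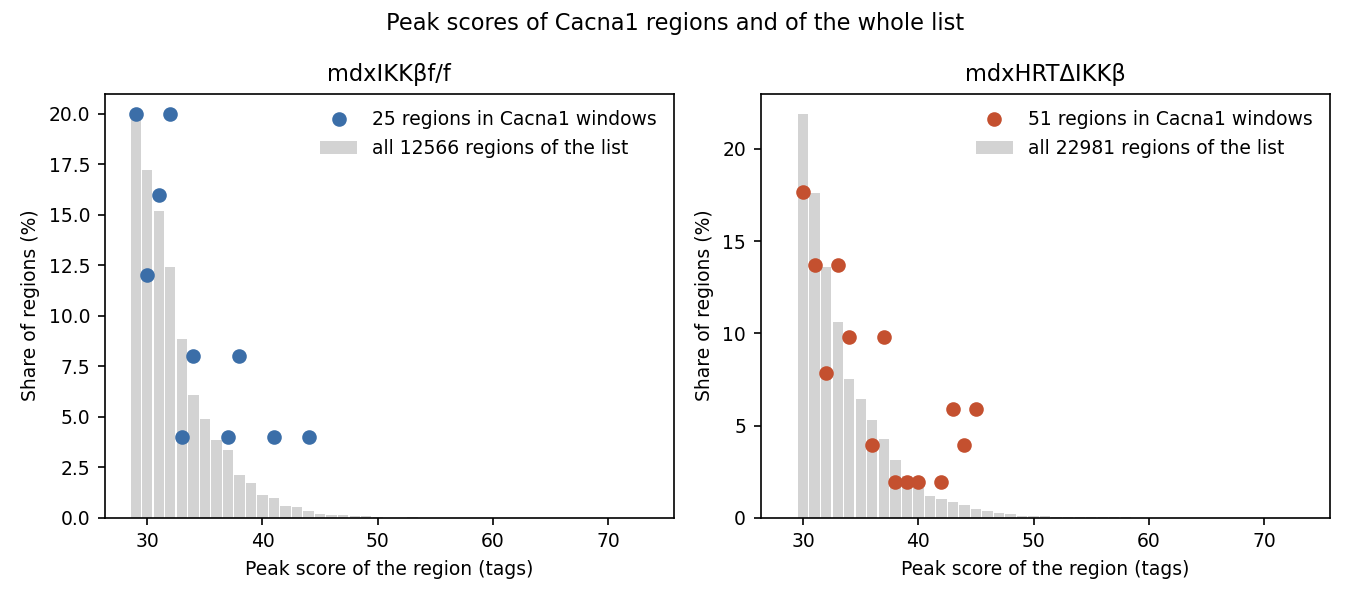
Share of regions in percent at each peak score in tags, with mdxIKKβf/f on the left and mdxHRTΔIKKβ on the right. Grey bars are all regions of the list and coloured points the 25 and 51 regions in the Cacna1 windows. In mdxHRTΔIKKβ the points lie below the bars at scores of 30, 31 and 32 and above them at 43 to 45, and no Cacna1 region exceeds 44 in mdxIKKβf/f or 45 in mdxHRTΔIKKβ.

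The DNA under the regions was richer in GC than in the lists as a whole. The median GC content was 52.1% in mdxIKKβf/f and 50.1% in mdxHRTΔIKKβ, against 47.7% in both lists. Median CpG counts in the central 500 bases were 6 and 5, against 5 and 5, and the highest were 23 and 15, so none approached the 56 seen in each list. The central 500 bases were searched on both strands for 5 motifs, of which the κB consensus, bound by NF-κB, the CTCF core and the MEF2 site are given by name alone. A κB match was found in 3 of 25 mdxIKKβf/f regions (12.0%, interval 2.55 to 31.2%) and 4 of 51 mdxHRTΔIKKβ regions (7.84%, 2.18 to 18.9%), against 9.20% and 9.22% of all autosomal regions. The CTCF core was found in 0 of 25 and 0 of 51, which allows up to 13.7% and 6.98% as the upper bounds of the intervals, against 0.191% and 0.209%. The MEF2 site was found in 0 and 0, against 0.678% and 0.528%. AGATAA, the GATA motif, was in 2 and 9 regions (8% and 17.6%), against 22.5% and 21.5%. The E-box CANNTG was in 25 and 47, against 95.3% and 95.2%. None of these shares departs from its list beyond counting error, except that the mdxIKKβf/f interval for AGATAA, 0.984 to 26%, only just includes the list's share.

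The κB matches are shown in 4 regions, those with the highest scores among the 7 that held one. Each line gives 200 bases of the plus strand of mm9 with the matching bases in capitals. They lie at chr15:80158709-80158908 in Cacna1i, chr11:94278176-94278375 in Cacna1g, chr8:87074242-87074441 in Cacna1a, which holds a pair of matches, and chr17:25585802-25586001 upstream of Cacna1h.
Cacna1i, mdxHRTΔIKKβ: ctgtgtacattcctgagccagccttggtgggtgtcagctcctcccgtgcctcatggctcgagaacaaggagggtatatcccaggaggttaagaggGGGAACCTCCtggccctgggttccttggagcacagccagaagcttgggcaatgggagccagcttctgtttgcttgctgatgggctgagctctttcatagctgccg
Cacna1g, mdxIKKβf/f: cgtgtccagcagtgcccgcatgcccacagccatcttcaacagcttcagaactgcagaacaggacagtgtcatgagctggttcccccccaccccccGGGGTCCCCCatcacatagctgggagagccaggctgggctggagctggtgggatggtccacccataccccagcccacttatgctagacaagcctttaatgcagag
Cacna1a, mdxHRTΔIKKβ: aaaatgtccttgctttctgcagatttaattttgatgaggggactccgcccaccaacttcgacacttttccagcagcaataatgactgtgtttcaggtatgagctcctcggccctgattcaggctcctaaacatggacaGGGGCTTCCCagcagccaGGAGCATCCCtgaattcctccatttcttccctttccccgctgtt
Cacna1h, mdxIKKβf/f: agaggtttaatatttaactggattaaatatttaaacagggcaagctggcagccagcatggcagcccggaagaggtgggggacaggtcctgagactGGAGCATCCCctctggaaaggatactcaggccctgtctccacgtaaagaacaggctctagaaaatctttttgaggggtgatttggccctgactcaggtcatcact
Both genotypes are represented among them, 2 sequences from each.

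The genes for the other channel subunits and for the RGK proteins, small GTPases that inhibit the channels, were counted by the same rule. Of these 20 genes, 6 held a mdxIKKβf/f region and 15 a mdxHRTΔIKKβ region, with 20 regions against 16.3 expected and 52 against 29.7. The ratios to chromosome density were 1.23 (interval 0.751 to 1.90) and 1.75 (1.31 to 2.30). These windows had 37.85% (Cacna2d1) to 52.09% GC (Cacnb1). Expected numbers from tiles of the same GC content were not taken for them, so their ratios on that scale are not known. Over all protein-coding genes the shares with a region were 22.7% and 36.4%, and among the 3935 genes with long windows 48.9% and 66.8%. The 20 genes were matched to neither group for window length. Counts were higher in mdxHRTΔIKKβ in 13 of the 20 genes and lower in 3, against 28.6% and 11.3% of all protein-coding genes, whose windows are on the whole shorter, and the mdxHRTΔIKKβ list is the longer of the 2. The 4 beta subunit genes, whose products carry the pore to the membrane, held 0 and 5 regions against 4.15 and 7.68 expected. The single alpha-2-delta gene Cacna2d3 held 8 and 21 of the 11 and 27 regions of its group, in the longest window of the list, 836.9 kb. The 8 gamma subunit genes held 8 and 18 regions against 3.26 and 6.23 expected. Their ratios of 2.45 (1.06 to 4.83) and 2.89 (1.71 to 4.57) were close to those of the alpha-1 genes by chromosome density. The 4 RGK genes held 1 and 2 regions, in Gem in both lists and in Rem1 in mdxHRTΔIKKβ.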

How the data were processed

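H3K27ac libraries of mdxIKKβf/f and mdxHRTΔIKKβ hearts (1 each) were analysed from the authors' lists of regions, and the inputs enter through the input columns. The submitters' processing notes name Bowtie2, HOMER and mm9. Reads that aligned uniquely were made into tag directories, and regions were called with findPeaks in histone mode against input, at 4-fold or more and a p of 0.0001. The tool versions were not given in the sources used here. The authors deposited the normalized tag count, a signal scaled to 10000000 tags per library, the findPeaks score in tags, the fold over input, a ratio to ChIP-matched input tags in which 0.5 stands for 0, and the p-value of each region, which was not used. Windows that missed the caller's thresholds are not in the lists, so no level could be given for them.

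The chromosome lengths of the reference used here (NCBIM37) equal those of mm9, and GENCODE vM1 gave gene bounds and transcripts. Expected regions were the chromosome's regions per base outside runs of N times the window's bases. Exon and intron numbers follow the longest coding transcript from its 5′ end. Counting and overlap (at least 1 bp) were tested on simulated data. Python 3, pandas, NumPy and SciPy were used. The 9 genes and all lists were chosen with earlier results of these data known. All 9 are named, with coordinates of every region where a gene had 3 or fewer in a list and otherwise of the 3 with the highest score (ties by normalized tags, then position). Sequence overlapping an annotated UTR was not printed. With 57852347 and 62458751 tags and 1 library per genotype, precision is that of the counts alone, and no model was fitted. Alternative windows, thresholds, merging and expected densities were tried.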

Additional observations from a re-analysis of the deposited data

How the results depend on the processing

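No paired analysis was possible because there is 1 library per genotype and no test was made. Other windows, counting by any overlap, merging within 1000 bp and the same score relative to expected tags kept the 25 and 51 regions within 1.5 times, and the ratios to the expected number stayed within their intervals under every planned density. At 5-fold or more over input the counts were 14 and 25, at 8-fold or more 5 and 10, and at a score of 1.5 times the lowest 1 and 3, where the ratios to the expected number were 7.55 and 7.65 over so few regions. With tiles of the same GC content, a density that was not planned, the ratios were 1.23 and 1.36. Both lay below the intervals by chromosome density, 1.43 to 3.27 in mdxIKKβf/f and 1.81 to 3.20 in mdxHRTΔIKKβ. Extending the other list by 1000 bp gave 1 region of each list near the other genotype, the pair in Cacna1c. For single genes, 143 of 180 values stayed within the Poisson interval of their count and 37 did not, 35 of them under the stricter fold or score. The others were the mdxIKKβf/f count of Cacna1h with less than 20 kb upstream, where it was 0. A single library per genotype limits every comparison to counting error.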
